A study of Mus musculus with 36 samples.

Results

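The 10 genes H2-K1, H2-D1, B2m, Tap1, Tap2, Tapbp, Psmb8, Psmb9, Psmb10 and Nlrc5 encode the parts with which a cell makes peptides, loads them onto MHC class I and controls the genes of that route. They were taken by gene name from the annotation of the array, with every probe of each gene, and 12 probes on the array carried one of these names. All 10 genes passed the background filter and were among the 17341 genes tested. Tap1, Tap2, Tapbp and Psmb8 were lower than in controls after all 5 exposures, with differences of -0.87 to -1.90 on the log2 scale. B2m went the other way in 3 exposures, where its level could not be separated from the session in which the slides were scanned. Arrays of the exposures with neutrons were mostly or all scanned in other sessions than the controls, which limits the falls there as well.

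Gene expression was measured in peripheral blood of 36 male C57BL/6J mice aged 8 to 10 weeks, bled 7 days after exposure. Each of the 6 groups held 6 mice, and every mouse had its own Agilent array, so the spread within a group is that between mice. Controls were sham-irradiated, and the x-ray group received 3 Gy of x-rays. The 5, 15 and 25% mixed field groups received 3 Gy in total, of which 0.15, 0.45 and 0.75 Gy were neutrons. The 83% neutron group received 0.75 Gy of neutrons without added x-rays; its sample labels call the field 100% neutron, and 83% is the share that the methods give for the neutron field, which carries some photons. The mice were of 1 inbred strain and 1 sex. RNA came from whole blood collected in PAXgene tubes and was depleted of globin transcripts, so every value is a mixture over all blood cell types.

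In the class I route, the proteasome cuts cellular proteins into peptides. Interferon exchanges 3 of its catalytic subunits for Psmb8, Psmb9 and Psmb10, which gives the immunoproteasome. The transporter formed by Tap1 and Tap2 carries the peptides into the endoplasmic reticulum, where tapasin, the product of Tapbp, holds the empty class I molecule next to the transporter. The class I molecule itself is a heavy chain, encoded in these mice by H2-K1 and H2-D1, paired with beta-2 microglobulin from B2m. Nlrc5 is a transactivator that acts on the promoters of many of these genes through a module of X and Y boxes. Lymphocytes express the route strongly, and most nucleated cells express it at some level.

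The promoters are shown because the 3 genes that encode the class I molecule held a set of motifs that the other members with a window did not. RefSeq windows (GRCm38.p6) were at hand for 8 of the 10 members, and none was at hand for Tap2 and Nlrc5. In the 250 bases before the transcription start, 4 motifs were searched on both strands: the interferon regulatory factor core AANNGAAA, the kappa B motif (GGGANT followed directly by NNCC), the X2 box core TGACG and the Y box CCAAT. These bases are printed 5′ to 3′ on the strand of the gene, with every match in capitals; the kappa B motif matched on both strands at overlapping positions in H2-K1 and H2-D1.
H2-K1 (chr17:34000348-34000597, minus strand): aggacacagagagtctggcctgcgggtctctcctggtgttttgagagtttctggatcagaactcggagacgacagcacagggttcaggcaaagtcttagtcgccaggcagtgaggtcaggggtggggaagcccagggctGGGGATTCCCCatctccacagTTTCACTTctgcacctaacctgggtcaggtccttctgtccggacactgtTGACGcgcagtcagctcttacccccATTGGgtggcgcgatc
H2-D1 (chr17:35262844-35263093, plus strand): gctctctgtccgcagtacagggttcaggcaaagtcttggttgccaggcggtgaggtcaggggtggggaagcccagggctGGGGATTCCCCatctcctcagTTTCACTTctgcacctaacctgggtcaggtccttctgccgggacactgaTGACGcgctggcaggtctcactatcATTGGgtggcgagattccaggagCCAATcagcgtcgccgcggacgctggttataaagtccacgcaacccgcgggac
B2m (chr2:122147437-122147686, plus strand): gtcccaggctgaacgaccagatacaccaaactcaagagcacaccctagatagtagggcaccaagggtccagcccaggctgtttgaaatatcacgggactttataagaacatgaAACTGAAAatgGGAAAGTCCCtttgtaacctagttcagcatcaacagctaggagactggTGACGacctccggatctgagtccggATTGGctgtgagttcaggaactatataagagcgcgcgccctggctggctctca
Tap1 (chr17:34187306-34187555, plus strand): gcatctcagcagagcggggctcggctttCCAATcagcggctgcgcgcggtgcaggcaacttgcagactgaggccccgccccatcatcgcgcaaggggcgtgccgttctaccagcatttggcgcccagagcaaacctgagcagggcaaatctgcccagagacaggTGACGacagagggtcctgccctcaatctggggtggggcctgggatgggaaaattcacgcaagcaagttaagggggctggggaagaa

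All 4 motifs were present in H2-K1, H2-D1 and B2m. Among all 32851 mouse windows of this length, 17 held all 4 motifs (0.0518%), and 4 of those 17 belonged to these genes, because H2-K1 has 2 annotated starts. The 2 H2-K1 windows overlap in most of their bases. Nlrc5 acts on class I promoters through X and Y boxes, so the motifs were not chosen blind to these genes. The share is therefore a description and no test. Taken singly the motifs were common, with the interferon regulatory factor core in 21.3% of windows, kappa B in 3.44%, the X2 box core in 17.8% and the Y box in 33.9%. Tap1 and Psmb9 are transcribed in opposite directions from neighbouring starts, so their windows overlap, and both held the X2 box core and the Y box alone. Tapbp held the Y box alone, and no match to the 4 motifs was found in the windows of Psmb8 and Psmb10. A match is a description of the sequence, and no binding was measured.

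**Figure D1:**
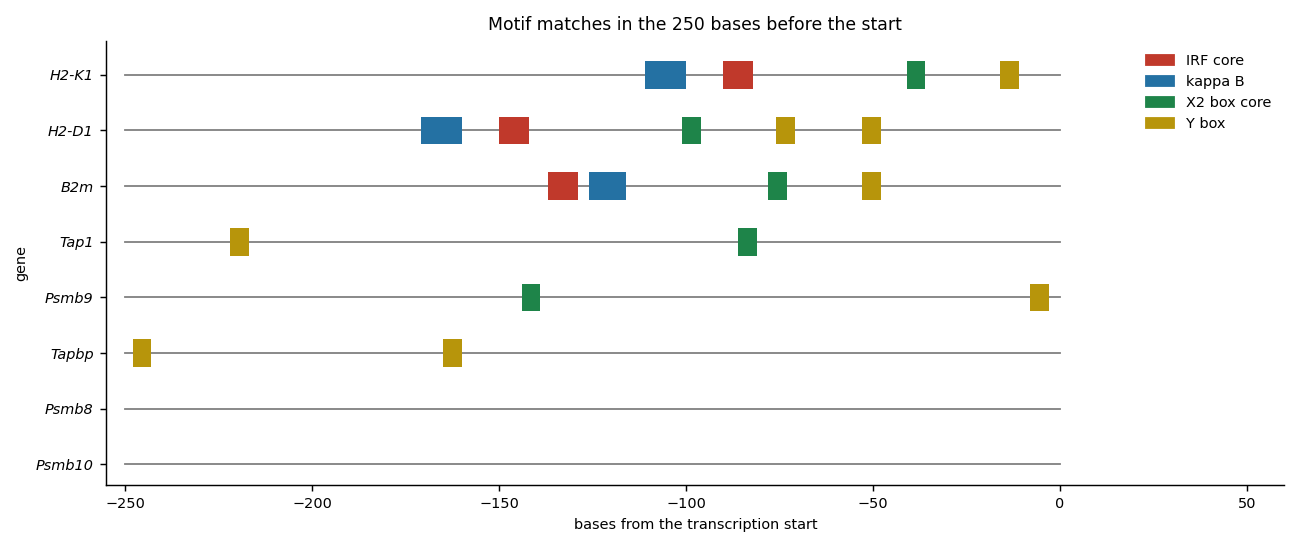
Matches to 4 motifs in the 250 bases before the transcription start of the 8 members with a RefSeq window, with distance from the start in bases on the x axis, 1 line per gene and 1 colour per motif. H2-K1, H2-D1 and B2m hold all 4 motifs, Tap1 and Psmb9 hold the X2 box core and the Y box, and Psmb8 and Psmb10 hold none of them.

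The members lie on 3 chromosomes. By the coordinates of the array design (mm9), 7 of the 10 genes have their probes on chromosome 17 in the major histocompatibility complex, Psmb10 and Nlrc5 on chromosome 8, and B2m on chromosome 2. Psmb9, Tap1, Psmb8 and Tap2 are neighbours, and their probes all fall within chr17:34319174-34353175. No gene model of this build was used, so exons and untranslated parts were not assigned. H2-K1 and Nlrc5 had a second probe. The second H2-K1 probe (chr17:34133984-34134043, minus strand) is printed because heavy chain genes are close copies of each other, and its capitals mark 29 bases that it shares with a probe for H2-T23, another heavy chain gene.
second H2-K1 probe: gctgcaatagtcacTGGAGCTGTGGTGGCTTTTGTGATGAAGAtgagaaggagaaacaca
RNA of H2-K1 and of related heavy chains cannot be told apart by such a stretch. The longest stretch that any other member probe shared with a probe of another gene was 17 bases, and transcripts without a probe on the array were not searched.

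The signal was strong enough to read these genes on every array. Of the 12 probes, 11 were well above background on 36 of 36 arrays, and none was saturated. The exception was the second Nlrc5 probe, which was well above background on 4 arrays and did not pass the filter. Levels are given as log2 intensity after each array was centred on the median of its gene probes, so a value of 0 is the array median, and a level compares groups for 1 probe but not one gene with another. To be called lower or higher, a gene needed p below 0.001 in limma together with an adjusted p (Benjamini-Hochberg, over the 17341 genes) below 0.05.

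The number of members called lower was 6 after x-rays, where 15.9% of all genes tested were called lower and 11.6% higher. After the 5% mixed field 5 members were called lower, against 13.1% of all genes lower and 8.1% higher. The 15% mixed field had 4 members lower and 1 higher, with 15.2% of all genes lower and 11.2% higher. The 25% mixed field also had 4 lower and 1 higher, with 13% of all genes lower and 9.73% higher. After 83% neutron 4 were lower and 1 was higher, with 19.3% of all genes lower and 14.4% higher. Leaving out 1 array at a time moved the x-ray count between 3 and 8, with 3 when controls replicate 2 or 6 or x-rays replicate 2 was left out. The median difference of the 10 members from controls was -1.10 after x-rays, -0.86, -0.55 and -0.62 after the 5, 15 and 25% mixed fields, and -0.62 after 83% neutron. Over all genes tested the medians were -0.20, -0.12, -0.06, -0.12 and -0.16 in the same order. Scaling each array on its 75th percentile moved the median of all genes to 0.14, 0.03, 0.13, 0.01 and 0.10 in the same order, and the share of calls that were lower from 57.8 to 41.1% after x-rays and from 57.2 to 41.6% after 83% neutron. Under that scaling Tap1 and Tap2 were called lower in all 5 exposures, and the x-ray calls of Tapbp and Psmb8 were lost.

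**Figure D2:**
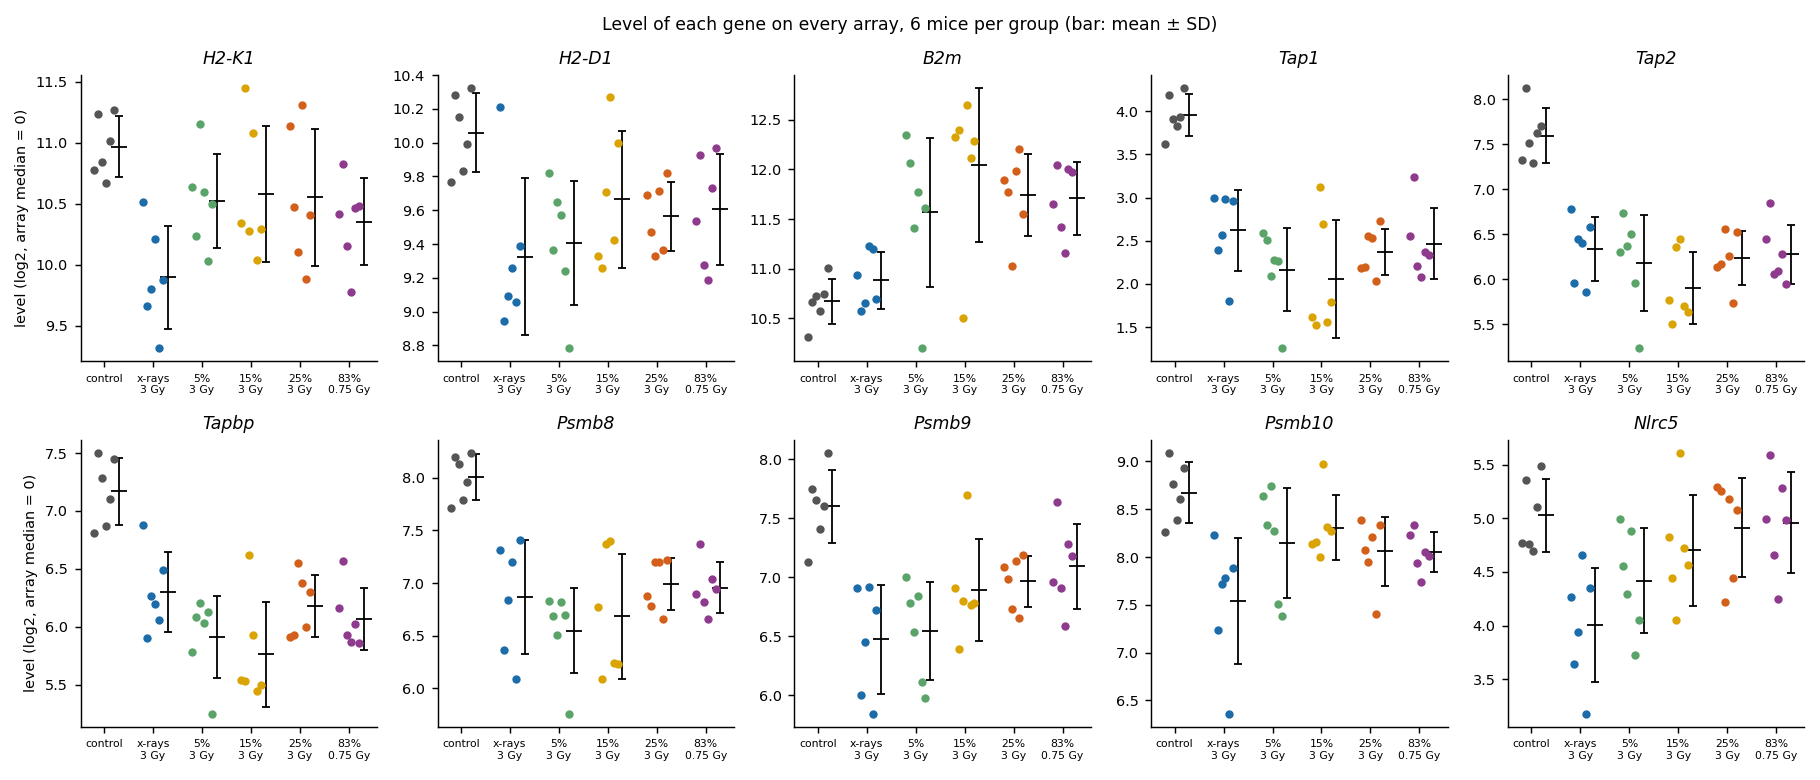
Level of each of the 10 genes on each of the 36 arrays (log2 intensity relative to the array median, y axis) by group (x axis, with total dose), 1 point per mouse and a bar for the mean ± SD of 6. Every exposed array lies below every control array for Tap1, Tap2 and Psmb8, and most exposed arrays with a neutron component lie above the controls for B2m.

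Both peptide transporter genes were called lower in all 5 exposures. Tap1, which encodes 1 chain of the transporter, had a lowest, median and highest control level of 3.61, 3.92 and 4.27. After x-rays the corresponding levels were 1.80, 2.77 and 3.00, and after 83% neutron they were 2.08, 2.35 and 3.24. The mixed fields gave 1.26, 2.27 and 2.59 at 5%, 1.53, 1.71 and 3.12 at 15% and 2.03, 2.36 and 2.72 at 25%. All 30 exposed arrays were below the lowest control, and the exposed groups overlapped each other. The log2 fold change by limma was -1.34 (SE 0.23, adjusted p = 0.000419) after x-rays and -1.79 (SE 0.24, adjusted p = 8.37e-05), -1.90 (SE 0.29, adjusted p = 0.000164) and -1.59 (SE 0.18, adjusted p = 2.31e-05) after the 5, 15 and 25% mixed fields. After 83% neutron it was -1.49 (SE 0.19, adjusted p = 3.04e-05), so that the level was between 2.53 and 3.74 times lower than in controls over the 5 exposures.

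Tap2 encodes the partner chain. Its lowest, median and highest levels were 7.29, 7.57 and 8.13 in controls and 5.86, 6.42 and 6.79 after x-rays. They were 5.24, 6.34 and 6.73, then 5.50, 5.74 and 6.45, then 5.74, 6.21 and 6.56 with rising neutron share in the mixed fields, and 5.95, 6.19 and 6.84 after 83% neutron. As for Tap1, all 30 exposed arrays lay below every control. Tap2 differed from controls by -1.26 (SE 0.21, adjusted p = 0.000383) after x-rays, -1.41 (SE 0.26, adjusted p = 0.000829) at 5%, -1.69 (SE 0.23, adjusted p = 6.26e-05) at 15%, -1.36 (SE 0.20, adjusted p = 0.000143) at 25% and -1.32 (SE 0.19, adjusted p = 6.04e-05) after 83% neutron by limma.

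Tapbp, the gene of the loading chaperone tapasin, had control levels of 6.81, 7.19 and 7.50 (lowest, median and highest). After x-rays these were 5.91, 6.23 and 6.88, the only exposure in which an array reached into the control range. They were 5.25, 6.06 and 6.21 at 5%, 5.45, 5.54 and 6.62 at 15% and 5.91, 6.15 and 6.55 at 25%, and 5.86, 5.98 and 6.56 after 83% neutron. In all, 29 of 30 exposed arrays were below every control. The log2 fold changes by limma were -0.87 (SE 0.21, adjusted p = 0.00348) after x-rays, -1.26 (SE 0.22, adjusted p = 0.000573), -1.41 (SE 0.24, adjusted p = 0.000324) and -0.99 (SE 0.19, adjusted p = 0.00104) after the mixed fields, and -1.10 (SE 0.17, adjusted p = 0.000120) after 83% neutron. The x-ray value was close to the threshold, and the call remained in 2 of the 12 fits that left out 1 of the 12 arrays, those without controls replicate 1 or x-rays replicate 1.

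Of the 3 immunoproteasome subunits, Psmb8 was called lower in all 5 exposures, Psmb9 after x-rays and the 5% field, and Psmb10 in none, and no subunit was called between exposures. Psmb8, which replaces Psmb5, had lowest, median and highest levels of 7.72, 8.05 and 8.24 in controls and 6.08, 7.02 and 7.41 after x-rays. It had 5.76, 6.69 and 6.83 at 5%, 6.09, 6.51 and 7.40 at 15%, 6.66, 7.03 and 7.22 at 25%, then 6.66, 6.92 and 7.38 after 83% neutron. All 30 exposed arrays were below every control. Psmb8 was called lower in each exposure, with log2 fold changes of -1.14 (SE 0.24, adjusted p = 0.00194) after x-rays, -1.46 (SE 0.22, adjusted p = 0.000198), -1.32 (SE 0.26, adjusted p = 0.00110) and -1.02 (SE 0.18, adjusted p = 0.000480) after the mixed fields and -1.05 (SE 0.15, adjusted p = 6.65e-05) after 83% neutron by limma. The x-ray call was lost when any one of controls replicates 2, 3, 5 and 6 or x-rays replicates 2 and 3 was left out, with differences between -1.15 and -1.04.

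Psmb9, which replaces Psmb6, had control levels of 7.13, 7.63 and 8.05 (lowest, median and highest) and 5.85, 6.59 and 6.91 after x-rays. The levels were 5.98, 6.66 and 7.01 at 5%, 6.40, 6.79 and 7.69 at 15%, 6.66, 7.04 and 7.19 at 25%, then 6.58, 7.07 and 7.64 after 83% neutron. The groups without or with little neutron dose were the lowest, and 24 of 30 exposed arrays were below every control. Psmb9 was called lower after x-rays at -1.12 (SE 0.24, adjusted p = 0.00164) and after the 5% field at -1.06 (SE 0.23, adjusted p = 0.00280), and it did not pass the p threshold after the 15% field at -0.71 (SE 0.23, adjusted p = 0.0233), the 25% field at -0.64 (SE 0.19, adjusted p = 0.0147) and 83% neutron at -0.51 (SE 0.19, adjusted p = 0.0390) by limma. The call at 5% was lost without controls replicates 2, 3, 5 or 6 or 5% replicates 5 or 6, and the x-ray call without controls replicates 2 or 6 or x-rays replicate 2. The difference of Psmb9 between 83% neutron and x-rays was 0.62 (95% interval 0.09 to 1.14, adjusted p = 0.0767 by limma), so the exposures were not shown to differ.

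Psmb10, which replaces Psmb7, was called in no exposure with arrays centred on their median. Its control levels were 8.26, 8.69 and 9.09 (lowest, median and highest), and its x-ray levels were 6.36, 7.75 and 8.23, with all 6 x-ray arrays below every control. In the other exposures the medians lay between 8.03 and 8.30 and each group overlapped the controls. The log2 differences were -1.14 (SE 0.29, adjusted p = 0.00516) after x-rays, -0.53 (SE 0.27, adjusted p = 0.134) at 5%, -0.37 (SE 0.22, adjusted p = 0.185) at 15%, -0.61 (SE 0.21, adjusted p = 0.0327) at 25% and -0.62 (SE 0.17, adjusted p = 0.00607) after 83% neutron by limma, of which the x-ray, 25% and 83% values had an adjusted p below 0.05 but an unadjusted p above 0.001.

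The constitutive subunits that these 3 replace were named for that role. Psmb5 was 0.07 after x-rays, 0.64, 0.81 and 0.66 after the 5, 15 and 25% fields and -0.24 after 83% neutron against controls on the log2 scale, and only the 15% value was called (adjusted p = 0.00306 by limma). Psmb6 ranged from -0.53 after x-rays to 0.36 at 25%, and Psmb7 from -0.36 after 83% neutron to 0.70 at 25%, with no call for either gene. No constitutive counterpart was called lower than in controls in any exposure. Of the subunits that replace them, Psmb8 was called lower in all 5, Psmb9 in 2 and Psmb10 in 0. With quantile normalization or the deposited table those 3 were each called lower in all 5, and the counterparts are not given under those settings. Psmb6 after 83% neutron was -0.44 (adjusted p = 0.0105 by limma), with all 6 arrays below every control, and did not pass the p threshold. After 83% neutron Psmb5 and Psmb7 were lower than after the 25% field, with differences of -0.91 and -1.06, while Psmb8 differed between those groups by -0.03 (95% interval -0.41 to 0.34).

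**Figure D3:**
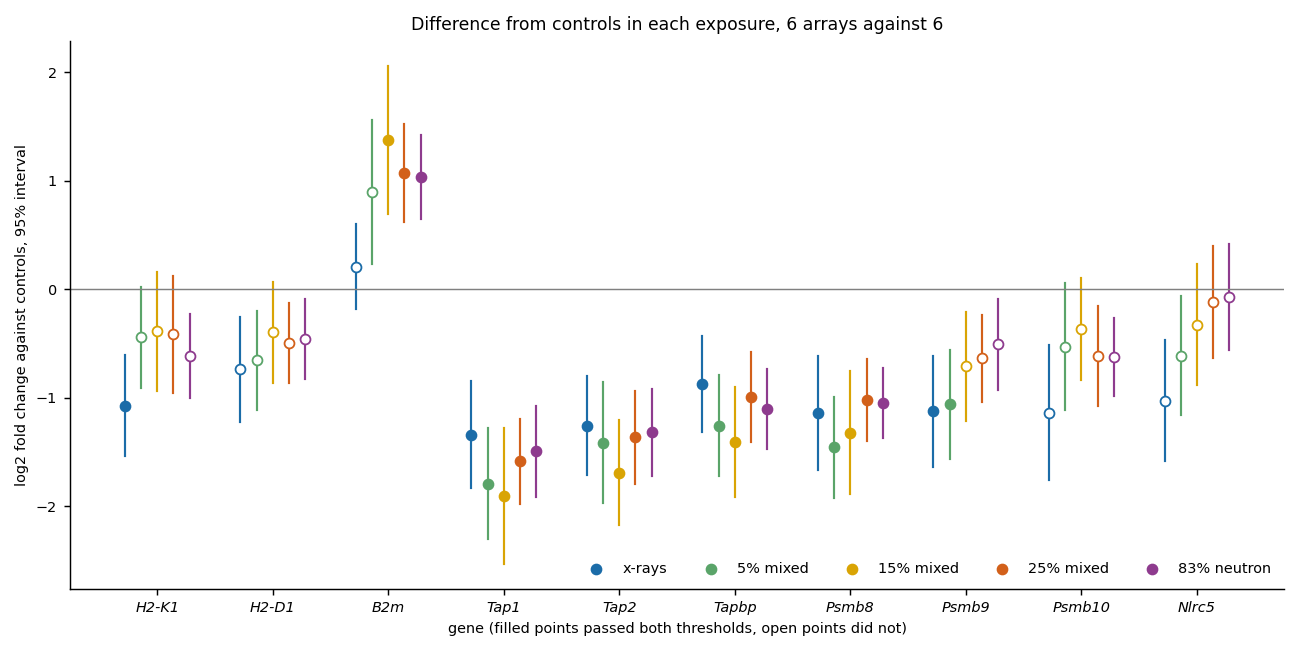
Log2 fold change of each of the 10 genes against controls (y axis, with its 95% interval, 6 arrays against 6) in the 5 exposures, where filled points passed both thresholds and open points did not. Tap1, Tap2, Tapbp and Psmb8 are filled and below 0 in all 5 exposures, the points of H2-D1, Psmb10 and Nlrc5 are open in all 5, and B2m lies above 0.

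Of the heavy chain genes, H2-K1 was called lower after x-rays and H2-D1 in no exposure, and neither was called between exposures. These calls too depended on the scaling. With quantile normalization H2-D1 was called lower in all 5 exposures, and with the deposited table in all but the 25% field. In both settings H2-K1 was called lower after x-rays, the 15% field and 83% neutron. H2-K1 encodes the classical heavy chain K, and its control levels were 10.67, 10.93 and 11.27 (lowest, median and highest). After x-rays they were 9.32, 9.84 and 10.52, with all 6 arrays below every control. The other groups reached into the control range, with 10.03, 10.55 and 11.15 at 5%, 10.04, 10.32 and 11.45 at 15%, 9.89, 10.44 and 11.31 at 25%, then 9.78, 10.44 and 10.82 after 83% neutron. H2-K1 was called lower after x-rays at -1.07 (SE 0.22, adjusted p = 0.00130), and the other differences were -0.44 at 5%, -0.39 at 15%, -0.41 at 25% and -0.61 after 83% neutron, with adjusted p between 0.0105 and 0.231 by limma. The second H2-K1 probe gave -0.72 after x-rays and between -0.52 and -0.38 in the other 4 exposures, the same direction as the brighter probe, and was not called in any of them.

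H2-D1 encodes the classical heavy chain D. Its levels were 9.77, 10.07 and 10.33 in controls (lowest, median and highest) and 8.94, 9.18 and 10.21 after x-rays. In the other exposures the lowest array lay between 8.78 and 9.33 and the highest between 9.82 and 10.27. The differences of H2-D1 from controls lay between -0.73 after x-rays (SE 0.22) and -0.40 at 15% (SE 0.22), and none was called; 23 of 30 exposed arrays were below every control. The x-ray group held 1 array, replicate 1, at 10.21, far above the other 5, and without it H2-D1 was called lower at -0.91.

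Nlrc5, the transactivator of the class I promoters, had control levels of 4.69, 4.93 and 5.49 (lowest, median and highest). Its levels were 3.18, 4.10 and 4.65 after x-rays, all below the controls, and 3.72, 4.43 and 5.00 at 5%. At 15% they were 4.05, 4.64 and 5.61, at 25% 4.22, 5.13 and 5.30 and after 83% neutron 4.25, 4.99 and 5.60, each reaching above the control median. The differences from controls were -1.03 (SE 0.26, adjusted p = 0.00497) after x-rays, -0.61 (SE 0.25, adjusted p = 0.0699), -0.33 (SE 0.26, adjusted p = 0.324) and -0.12 (SE 0.24, adjusted p = 0.723) after the mixed fields and -0.07 (SE 0.23, adjusted p = 0.814) after 83% neutron by limma, and none was called. The sign of the last 2 values turned with the scaling, to 0.0172 at 25% and 0.20 after 83% neutron with arrays scaled on the 75th percentile. Against x-rays, Nlrc5 was higher by 0.91 at 25% (95% interval 0.28 to 1.54, adjusted p = 0.0819) and by 0.96 after 83% neutron (95% interval 0.35 to 1.56, adjusted p = 0.0239) by limma, and neither passed the p threshold. Tap1, Tap2, Tapbp and Psmb8 were called lower than controls in those same groups.

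B2m, the light chain of every class I molecule, had control levels of 10.31, 10.69 and 11.00 (lowest, median and highest) and x-ray levels of 10.58, 10.81 and 11.22. The levels were 10.20, 11.69 and 12.35 at 5%, 10.50, 12.31 and 12.65 at 15%, 11.02, 11.84 and 12.21 at 25%, then 11.15, 11.81 and 12.05 after 83% neutron. All 12 arrays of the last 2 groups were above every control, as were 5 of 6 in each of the 5 and 15% groups. By limma B2m was called higher in the 15% group at 1.38 (SE 0.32, adjusted p = 0.00294), in the 25% group at 1.07 (SE 0.21, adjusted p = 0.00120) and after 83% neutron at 1.04 (SE 0.18, adjusted p = 0.000301). It was not called after x-rays (0.21, adjusted p = 0.338) or in the 5% group (0.90, adjusted p = 0.0317) by limma. The remaining array of the 5% group (replicate 5, 10.20) and that of the 15% group (replicate 3, 10.50) were the lowest exposed arrays of all.

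The groups were not spread evenly over the scans. The scan times in the file headers fall into 4 sessions, with 5 control and 5 x-ray arrays in the first, 5 arrays each of the 5 and 15% fields in the second, all 25% and 83% arrays in the third, and 1 array each of controls, x-rays, 5% and 15% on 1 slide in the fourth. In the fourth session B2m was 10.73 in the control, 10.69 after x-rays, 10.20 at 5% and 10.50 at 15%, so the exposed arrays were not above the control there. With the session as a block B2m differed from controls by -0.53 at 5% and -0.23 at 15%, each resting on 1 exposed array and 1 control. For the 25% field and 83% neutron, exposure and session cannot be told apart. Quantile normalization gave 0.52 at 15% (adjusted p = 0.0867), 0.55 at 25% (adjusted p = 0.0523) and 0.57 after 83% neutron (adjusted p = 0.00101) by limma, of which the last alone was called. The deposited table gave 0.43 at 15% (adjusted p = 0.165), 0.52 at 25% (adjusted p = 0.104) and 0.44 after 83% neutron (adjusted p = 0.0069) by limma. B2m was called in no exposure with that table, nor with normexp background correction. Left out in turn, any array other than 15% replicate 3 removed the call at 15%, with differences between 1.26 and 1.45.

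Within the fourth session the transporter and proteasome genes were lower in each exposed array than in the control. Tap1 was 3.91 in the control, 2.96 after x-rays, 2.27 at 5% and 3.12 at 15%. Tap2 was 7.51, 6.58, 5.95 and 6.36 in that order, and Psmb8 was 8.13, 7.41, 6.69 and 7.37. These are single arrays, so no error is attached to their differences, which ran from -0.72 for Psmb8 after x-rays to -1.64 for Tap1 at 5%. H2-K1, H2-D1, Tapbp, Psmb9, Psmb10 and Nlrc5 were also lower in the 3 exposed arrays than in the control, with differences from -0.41 to -1.54. Without the 4 arrays of that session, Tap1, Tap2 and Psmb8 were called lower in all 5 exposures. B2m was then called higher at 5% too. In that fit only x-rays were compared with controls within a session, the first, and the count after x-rays was 3 in place of 6. The exposures with neutrons then shared no session with the controls. Exposure and session cannot be told apart in the calls of those exposures.

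**Figure D4:**
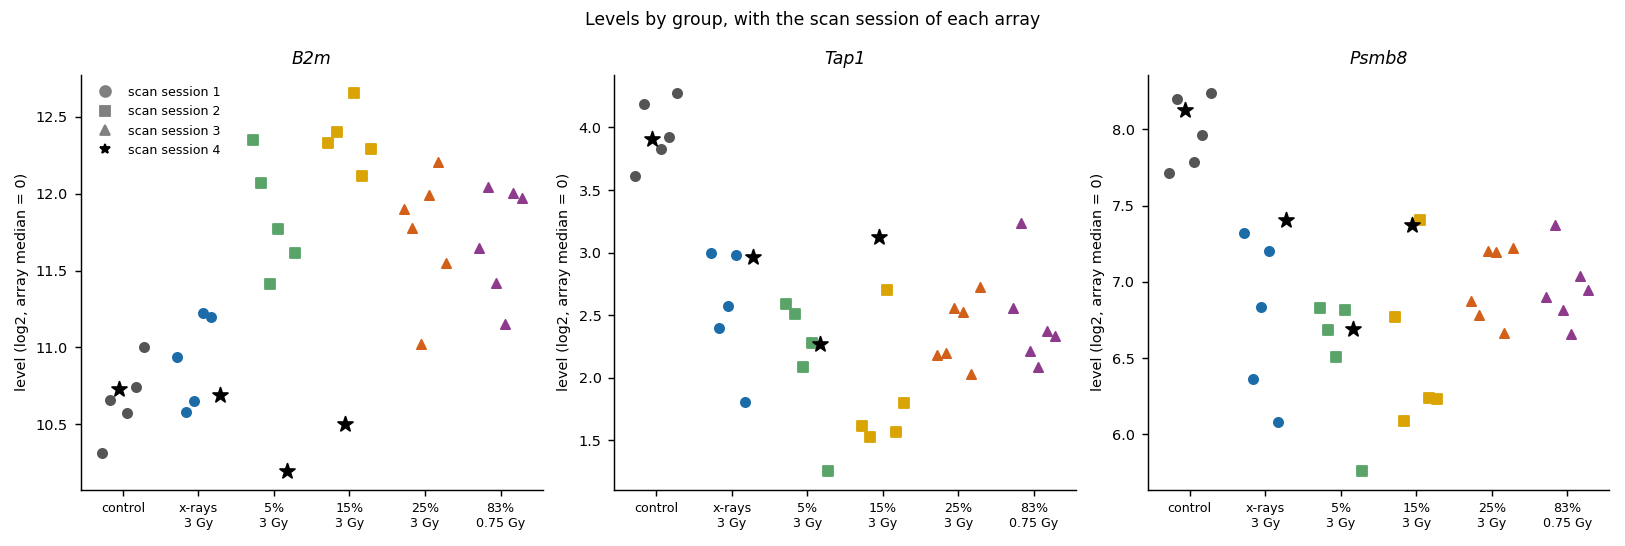
Levels of B2m, Tap1 and Psmb8 (log2 intensity relative to the array median, y axis) by group (x axis), 1 point per array, with the shape of the point giving the scan session and black stars the 4 arrays of the fourth session. For B2m the stars of the 5 and 15% groups lie within or below the range of the controls and far below the other 5 arrays of their group, whereas for Tap1 and Psmb8 the stars of the 3 exposed groups lie below every control.

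The direct comparisons between exposures ask whether the neutron component changed these genes at the same or a lower total dose. No member was called at 5% against x-rays, where 0% of all genes were called, and 1 member had p below 0.05 by limma. No member was called at 15% against x-rays (3.92% of all genes called, 4 members with p below 0.05), at 25% against x-rays (2.47%, 3 members) or after 83% neutron against x-rays (12% of all genes, 3 members). The 83% group against the 25% group compares the same neutron dose with and without x-rays, and no member was called there (10.6% of all genes called, 0 members with p below 0.05). Differences in that comparison ran from -0.20 for H2-K1 (95% interval -0.77 to 0.37) to 0.13 for Psmb9 (95% interval -0.29 to 0.55). The 5 and 15% groups shared only the fourth session with x-rays, with 1 array of each group in it. The 25% and 83% groups shared no session with x-rays, so exposure and session cannot be told apart in those comparisons. With the session as a random effect, 4 members were called at 25% and 2 after 83% neutron against x-rays. Without a shared session that model cannot separate exposure from session either. Between the 83% and 25% groups, which shared a session, the interval for Tap1 was -0.36 to 0.55, for Tap2 -0.39 to 0.48, for Tapbp -0.51 to 0.28 and for Psmb8 -0.41 to 0.34.

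When the 6 group means of each gene were put in order, 4 of the 50 steps between neighbouring groups passed both thresholds. These were the steps from controls to x-rays for Tap1, Tap2 and Tapbp and from controls to the 25% field for Psmb8. Below that step the 5 exposed groups of these genes followed each other in steps that passed neither threshold, with the 15% group lowest for Tap1 (2.05 ± 0.68, SD, n = 6), Tap2 (5.91 ± 0.40) and Tapbp (5.76 ± 0.45) and the 5% group lowest for Psmb8 (6.55 ± 0.40). For H2-K1, H2-D1, Psmb9, Psmb10 and Nlrc5 the x-ray group was the lowest and controls the highest, and no step between neighbours passed both thresholds; the step of Psmb9 from controls to 83% neutron had an adjusted p of 0.0390 by limma. For B2m the order from the highest was 15%, 25%, 83%, 5%, x-rays and controls. None of its steps passed both thresholds, although B2m was called against controls in 3 exposures. Neighbours in a sorted order have the smallest gaps, so a step that did not pass does not show that 2 groups are alike.

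Blood changes its cell make-up after irradiation, and marker genes of blood cells were read on the same arrays. In bulk blood, fewer cells of a type and less RNA per cell cannot be told apart. All 14 B-cell markers were called lower after x-rays and each mixed field, with medians of -4.40, -3.97, -4.03 and -4.30, and 12 of 14 after 83% neutron, with a median of -1.55. The mean level of the 14 markers ran from 6.21 to 6.96 in controls, 2.03 to 3.24 at 25% and 4.93 to 5.29 after 83% neutron. Between the 83% and 25% groups 13 of 14 B-cell markers were called higher (median 2.87). The 10 members differed there by between -0.20 and 0.13, and whether B cells bear on those differences was not tested. Of 16 T-cell markers, 7, 6, 6, 3 and 2 were called lower after x-rays, the 5, 15 and 25% fields and 83% neutron. Over all genes tested 15.9, 13.1, 15.2, 13 and 19.3% were called lower in that order, and the marker counts are to be read beside these shares. The mean level of the T-cell markers ran from 5.71 to 6.48 in controls, 4.68 to 5.47 after x-rays and 5.16 to 6.32 after 83% neutron.

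Of 13 red-cell markers tested, 8, 8, 8, 7 and 12 were called higher in the same order of exposures, with mean levels of 6.32 to 6.81 in controls and 7.91 to 8.91 after x-rays. Of 12 neutrophil markers 3 were called higher in each exposure, of 11 monocyte markers between 1 and 3, of 13 platelet markers between 0 and 5, of 12 NK-cell markers 3 at 25% and 0 elsewhere, and of 7 dendritic-cell markers 1 after 83% neutron. Some markers went the other way, with 1 neutrophil marker called lower at 15%, at 25% and after 83% neutron, and 1 monocyte marker at 5%. Over all genes tested 11.6, 8.1, 11.2, 9.73 and 14.4% were called higher in the same order of exposures. The part of these cell types in the falls of the class I genes was not tested.

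**Figure D5:**
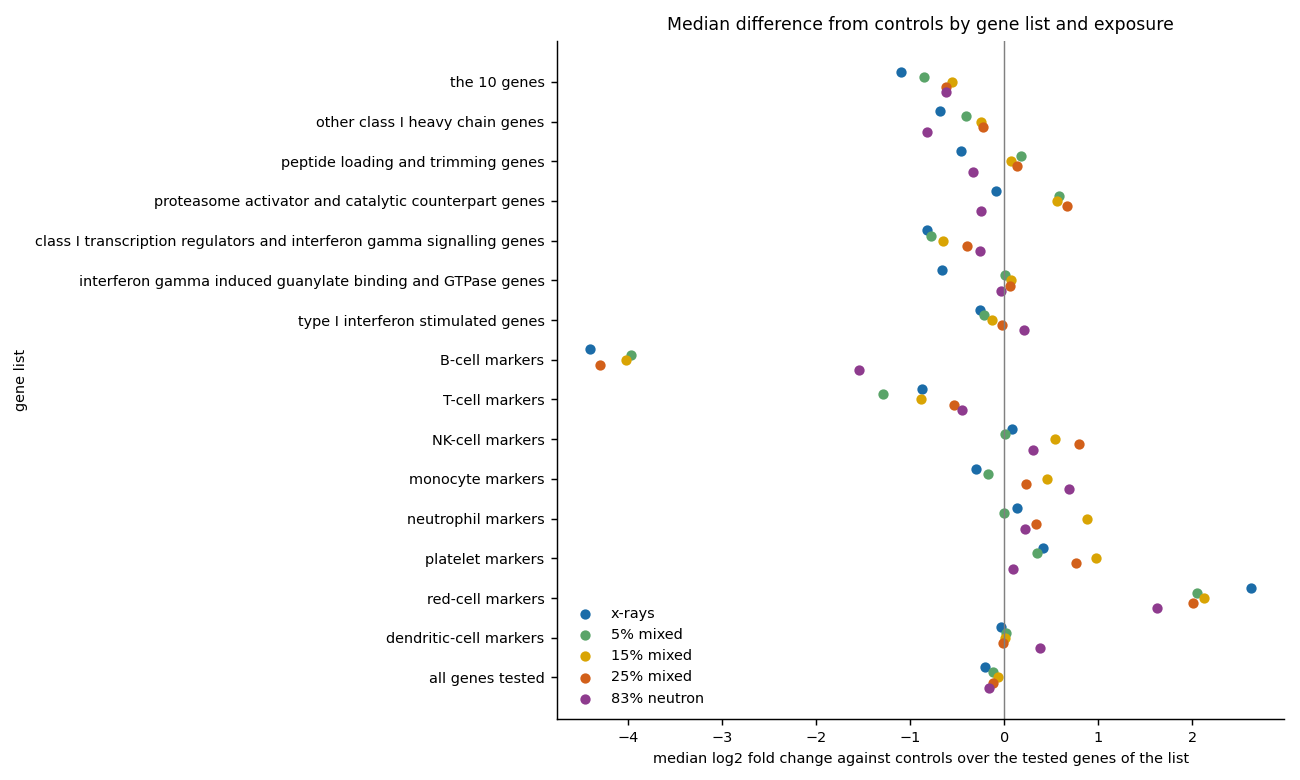
Median log2 fold change against controls (x axis) over the tested genes of each list (y axis), 1 point per exposure, with the 10 class I genes in the top line and all 17341 genes in the bottom line. The 10 genes lie between -1.10 and -0.55, B-cell markers lie near -4 after the 3 Gy exposures and at -1.55 after 83% neutron, and red-cell markers lie above 1.

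Other genes of the route were taken from hand-written lists. Of 15 other class I heavy chain genes tested, 2, 5, 3, 4 and 5 were called lower after x-rays, the 5, 15 and 25% fields and 83% neutron, and 0 higher. Over all genes tested 15.9, 13.1, 15.2, 13 and 19.3% were called lower in that order, and 11.6, 8.1, 11.2, 9.73 and 14.4% higher. Counts of this list and of those below are to be read beside these shares. H2-Q4, a nonclassical heavy chain gene, was called lower in all 5 exposures, from -1.44 at 15% to -0.89 after 83% neutron. H2-M3, whose product presents formylated peptides, was called lower after x-rays at -1.67 and at 5% at -1.17. H2-Bl was called lower at 25% (-1.28) and after 83% neutron (-2.29), and Fcgrt, the gene of the neonatal Fc receptor heavy chain, was called lower after 83% neutron at -1.45. How far probes of these close relatives read each other's RNA was not tested.

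Of 12 peptide loading and trimming genes, 1 was called lower in each exposure, a smaller share than over all genes, and 0 higher. This was Tapbpl, a relative of tapasin, in the 4 exposures with neutrons, from -0.93 at 15% to -0.75 at 25%, and Ganab, a glucosidase subunit of the endoplasmic reticulum, after x-rays at -1.09. Tapbpl after x-rays was -0.81 (adjusted p = 0.00777 by limma), with all 6 arrays below every control, which did not pass the p threshold. The median of the list lay between -0.46 and 0.18.

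Among 9 proteasome activator, assembly and catalytic counterpart genes, 2, 2, 4, 3 and 1 were called higher and 1, 0, 1, 0 and 2 lower in the same order of exposures. Psme3, an activator of the nuclear proteasome, was higher in all 5, from 1.16 at 25% to 2.16 at 15%. Psme4, another nuclear activator, was higher by 2.08 after x-rays, 1.92 at 5%, 1.73 at 15% and 1.62 at 25%. Pomp, the proteasome maturation protein, was higher at 15% by 1.27 and at 25% by 1.06, and Psmg2, an assembly chaperone, was lower after x-rays at -1.26, at 15% at -1.08 and after 83% neutron at -1.19.

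Of 24 class I transcription regulators and interferon gamma signalling genes, 8, 9, 6, 7 and 5 were called lower and 1, 1, 1, 1 and 3 higher in the same order. Stat2, which carries interferon signals, was called lower in each exposure, from -1.48 after x-rays to -1.18 after 83% neutron. Ifnar1, a chain of the type I interferon receptor, was called lower in all 5, from -1.68 at 15% to -1.19 after x-rays. Ifnar2, the other chain, was called higher in all 5, from 0.78 at 5% to 1.30 after 83% neutron, and is named after its values were seen. Ciita, the class II counterpart of Nlrc5 and a gene of B cells, was called lower in all 5, with values between -2.26 at 15% and -1.64 after 83% neutron. Rfxap, a subunit of the factor that binds the X box, was called lower after x-rays at -1.71, and its values of -1.12 at 5% (adjusted p = 0.0101) and -0.63 after 83% neutron (adjusted p = 0.00883) did not pass the p threshold of limma.

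Genes that interferons induce held both higher and lower members. Of 13 guanylate binding and GTPase genes that interferon gamma induces, 1 was called lower after x-rays and each mixed field and 0 higher, and 2 lower and 1 higher after 83% neutron. Gbp4 was the gene called lower in all 5, from -1.85 at 5% to -1.13 at 25%, and Iigp1 was lower (-1.66) and Tgtp1 higher (1.45) after 83% neutron. Of 17 type I interferon stimulated genes, 3, 3, 3, 3 and 5 were called higher and 1, 2, 1, 2 and 2 lower. Isg15, Oas3 and Rsad2, which act in antiviral defence, were higher in all 5 exposures, with Oas3 between 1.73 and 2.62, Rsad2 between 1.55 and 2.13 and Isg15 between 1.58 and 2.06. Ifit2, of the same list, was lower in all 5, from -1.11 after 83% neutron to -1.95 at 15%.

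The members varied together over the 36 arrays, apart from B2m. Pearson's r between pairs of the 9 other genes ran from 0.23 to 0.95 with a median of 0.67 over 36 pairs, and after subtraction of the group means from 0.17 to 0.92 with a median of 0.65. Pairs that included B2m ran from -0.64 to 0.43, and within groups from -0.32 to 0.62. The arrays share their centring, RNA quality and scan session across all genes, so these values describe the arrays and carry no test.

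The genes most like the mean standardized level of the 10 members over the 36 arrays were Coro7 (r = 0.96), Sirt7 (0.95), Stx6 (0.95), H3f3b (0.95) and a probe without a gene symbol (0.95). For single members, the closest gene was Naa35 for H2-K1 (r = 0.96), Vipas39 for H2-D1 (0.92) and Zrsr1 for B2m (0.93). It was Rgl2 for Tap1 (0.96), Cdt1 for Tap2 (0.96), a probe without a symbol for Tapbp (0.97), Dbnl for Psmb8 (0.95), H3f3b for Psmb9 (0.94), Snx11 for Psmb10 (0.95) and Cd48 for Nlrc5 (0.92). No member had another gene of the pathway lists as its closest gene outside the 10.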

How the data were processed

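For 36 arrays the authors deposited Agilent Feature Extraction 12.0.2 scanner files, whose processed intensity is background-corrected and not normalized between arrays, and a normalized, filtered log2 table, which the authors deposited for the series and which served as an alternative. Intensities were taken to log2 in R 4.3.3 (limma 3.58.1), uniform spots were averaged per probe, and each array was set to a median of 0 over its 39429 gene probes. Probes had to be uniform and above background on more than 75% of arrays (21483 probes), and the brightest probe stood for a gene (17341 genes). Each comparison used limma on its 12 arrays without a fold filter. Alternatives changed scaling, background correction, filters, probe choice and batch terms, or left out arrays. The number of arrays limits the precision, and between 15564 and 21293 probes per array were well above background. Genes outside the 10 were named by list, with at most 4 per list by largest change among those called, or as closest by correlation. The members and lists were chosen with earlier results of these data known. Motifs were counted with Python 3.11.15, and figures were drawn with matplotlib 3.10.9. The limma step was tested on simulated data.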

Additional observations from a re-analysis of the deposited data

Results flagged for a closer look

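Among 60 sets of 6 arrays, 1 for each gene and group, 5 had an array that stood apart from the other 5 by Dixon's ratio of the gap to the range, above its 95% critical value for 6 samples. Chance alone passes that limit in about 1 of 20 sets. B2m had a ratio of 0.751 in the 15% group, where replicate 3 at 10.50 lay below the next array at 12.12; this array was scanned in the fourth session. H2-D1 had 0.648 after x-rays, where replicate 1 at 10.21 lay above the next at 9.39. Psmb8 had 0.702 and Tap1 0.626 in the 5% group, in both of which replicate 6 was the lowest array, at 5.76 for Psmb8 and 1.26 for Tap1. Psmb10 had 0.677 in the 15% group, where replicate 4 was the highest at 8.97.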

How the results depend on the processing

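Of the differences of single members from controls under alternative settings, 1166 kept their direction and side of the threshold, 108 lost a call, 54 gained one and 17 changed sign. Of called differences, B2m changed sign at 15% with a slide or a scan session block (-0.23 in both) and after 83% neutron with normexp background correction (-0.21). Of uncalled ones, B2m changed sign after x-rays with quantile normalization (-0.35), normexp (-0.64), the deposited table (-0.40) and the slide block (-0.089), and at 5% with normexp (-1.11) and the slide and session blocks (-0.53 in both). Nlrc5 changed sign at 25% with the 75th percentile (0.0172) and without 25% replicate 3 (leaving out 1 array gave -0.19 to 0.023), and after 83% neutron with the 75th percentile (0.20), centring on probes well above background (0.12), quantile normalization (0.14), and without controls replicate 6 or 83% replicate 4 (leaving out 1 array gave -0.19 to 0.074). Counts of members called against controls were 6, 5, 5, 5 and 5 in the order x-rays, 5, 15, 25% and 83%. They moved to 0, 1, 0, 1 and 1 with normexp, and to 0 after x-rays with the slide block. That x-ray difference rested on controls replicates 3, 5 and 6 and x-rays replicates 1, 2 and 6, which shared slides. Over all genes that fit gave 873 higher and 478 lower, in place of 2015 and 2764. At 5 and 15% the slide and scan session blocks rest on 1 array a group, so their counts are not given. The counts of members rose to 8 at 15% and 9 at 83% with quantile normalization, and to 8 and 8 there with the deposited table. They rose to 8 and 9 at 25 and 83% without the p threshold, and to 8 at 25% with the session as a random effect. The 25% group shared no session with controls, so that last model cannot separate exposure from session. Calls over all genes tested moved too. Without the p threshold 3997 were higher and 5846 lower at 83%, in place of 2499 and 3339. At 25% the session as a random effect gave 2924 higher and 4035 lower, in place of 1688 and 2263. Normexp gave 0 and 781 at 5%, in place of 1404 and 2276. Quantile normalization at 15% gave 1769 and 3064, in place of 1940 and 2628. Arrays with the same replicate number came from different mice and did not vary together (mean r 0.04 over 90 pairs), so they were not taken as paired, and the replicate block gave 2 after x-rays and 3 and 3 at 15 and 25%. Without the 4 arrays of the fourth session, a setting chosen after seeing the data, the x-ray count was 3. Leaving out 1 array gave 3 to 8 after x-rays (3 without controls replicate 2 or 6 or x-rays replicate 2), 4 to 5 at 5 and 15%, 5 at 25% and 5 to 6 at 83%. Against x-rays no member was called, but 1 was at 15% without the p threshold, with 1 model over 36 arrays or without the fourth session, 4 at 25% and 2 at 83% with the session as a random effect, 2 at 83% with quantile normalization or without the p threshold and 1 with the deposited table. Leaving out 1 array gave 0 to 1 there, in each case B2m, without 15% replicate 3, 25% replicate 3, x-rays replicate 5 or 83% replicate 4. The cause of these moves was not tested. H2-D1 was not tested under the fold filter, which it did not pass.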
